A study of Homo sapiens with 20 samples.

Results

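The BCL2 family decides, at the mitochondrial outer membrane, whether a stressed cell lives or dies. Pro-survival members such as BCL2, BCL-XL (gene BCL2L1), BCL-W (BCL2L2) and MCL1 bind and hold back the pore-forming effectors BAK1 and BAX. BH3-only members, among them BID, BIM (BCL2L11), BMF, BIK and NOXA (PMAIP1), carry a short helix that occupies the groove of the pro-survival proteins or activates the effectors, and many of them are controlled through their RNA level.

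Described here are 10 such genes, found by their symbol among the 50775 gene rows of each count table. They comprise 4 pro-survival members (BCL2, BCL2L1, BCL2L2 and MCL1), 1 effector (BAK1) and 5 BH3-only members (BID, BCL2L11, BMF, BIK and PMAIP1). The levels come from RNA sequencing of 5 established human cancer cell lines, untreated or after 72 h with torkinib (PP242), a drug that competes with ATP for the active site of the kinase MTOR. The series was set up to ask what MTOR inhibition does to genes of DNA repair. All 10 symbols had a row with counts, and all 10 passed the filter on low counts that left 16698 genes for testing.

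The lines were 94T778, a well-differentiated liposarcoma line, the melanoma lines A375 and SKMEL28, and the breast cancer lines SKBR3 and AU565, which were derived from the same patient. SKBR3 received 0.8 µM torkinib, 94T778 received 10 µM, and the remaining lines (AU565, SKMEL28 and A375) received 4 µM, chosen per the labels so that the cell cycle stopped while cells stayed viable. How long untreated cells were kept is not stated. The medium differed too: RPMI for 94T778 and SKBR3, RPMI with added sodium pyruvate and bicarbonate for AU565, DMEM for A375 and MEM for SKMEL28. Line and medium therefore cannot be told apart, and outside A375, SKMEL28 and AU565 neither can line and dose. There were 2 libraries per line and condition, in 10 groups. Whether these were separate cultures is not said in the labels, so the p-values here measure a spread between libraries that may be technical. RNA was taken from whole cultures, in which fewer cells of a kind and less RNA per cell cannot be told apart.

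Counted reads ranged from 4040023 to 9737903 per library. Line markers fitted the labels in broad terms: the summed level of 6 genes of the 12q amplicon was 10366 to 11932 CPM (counts-per-million, here of the library total) in 94T778 and at most 957.7 CPM elsewhere, and that of 10 luminal breast genes was 14103 to 27718 CPM in SKBR3 and AU565 and at most 493.8 CPM elsewhere. Of these breast genes CDH1 lay at 0 to 0.295 CPM in both breast lines. The 8 melanocyte genes summed to 8256 to 11758 CPM in SKMEL28 and to 686.2 to 777.9 CPM in A375. In A375 the pigment gene TYR lay at 0 to 0.441 CPM, TYRP1 at 0.708 to 1.73 and DCT at 0.267 to 1.73. MLANA lay there at 0.401 to 1.24 CPM and PMEL at 0.990 to 7.06. Nearly all of the A375 sum therefore came from SOX10, MITF and S100B. Blood markers stayed at or below 18.8 CPM, with 1 to 4 of 4 genes at 0. The 4 endothelial genes summed to 16.7 and 21.0 CPM in untreated SKBR3 and to 148.5 and 157.2 CPM with torkinib, and in AU565 to 28.6 to 29.2 CPM and 78.7 to 80.9 CPM. Nearly all of it was CDH5, with TEK and KDR at 0 to 0.181 CPM in these lines; the part of this in the results was not tested. A375 untreated replicate 1 held the 34 genes that marked 94T778 at a median of 2.22% of their level there, against 0 to 0.168% in the other A375 libraries. SKBR3 untreated replicate 2 held 151 genes that marked SKMEL28 at 0.454%, and SKMEL28 untreated replicate 2 held 29 genes that marked A375 at 0.438%. These marker sets were chosen after the data were seen, and results that rest on these libraries are given without them where that changes a call.

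Upstream sequences are shown for the 3 BH3-only genes on which the results turn, BCL2L11 and BMF, which rose in most lines, and PMAIP1, which moved in opposite directions. They were read from the RefSeq promoter table (GRCh38.p14), which matched 7 of the 10 members with 13 start sites; MCL1, BCL2L2 and BIK were not matched. Each run is the 250 bases before the annotated start, on the gene's own strand, and capitals mark a match to the FOXO motif GTAAACA. The BCL2L11 window is chr2:111120664-111120913 on the plus strand. BMF has 2 annotated starts on the minus strand, with windows chr15:40108880-40109129 and chr15:40106967-40107216. The PMAIP1 window is chr18:59899746-59899995 on the plus strand.
BCL2L11: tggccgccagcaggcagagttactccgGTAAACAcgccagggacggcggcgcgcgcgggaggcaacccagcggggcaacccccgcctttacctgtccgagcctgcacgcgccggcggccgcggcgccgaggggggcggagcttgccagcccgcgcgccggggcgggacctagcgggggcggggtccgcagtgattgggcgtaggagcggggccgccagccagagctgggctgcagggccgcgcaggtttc
BMF, first start: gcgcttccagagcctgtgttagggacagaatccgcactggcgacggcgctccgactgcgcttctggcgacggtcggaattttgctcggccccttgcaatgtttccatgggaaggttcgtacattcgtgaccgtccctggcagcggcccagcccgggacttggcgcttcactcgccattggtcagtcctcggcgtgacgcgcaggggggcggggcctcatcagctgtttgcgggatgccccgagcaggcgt
BMF, second start: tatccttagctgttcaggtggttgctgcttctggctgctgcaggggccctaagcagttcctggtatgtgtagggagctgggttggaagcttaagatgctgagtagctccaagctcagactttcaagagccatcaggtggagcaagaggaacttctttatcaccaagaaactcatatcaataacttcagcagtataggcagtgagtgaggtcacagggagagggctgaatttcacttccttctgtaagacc
PMAIP1: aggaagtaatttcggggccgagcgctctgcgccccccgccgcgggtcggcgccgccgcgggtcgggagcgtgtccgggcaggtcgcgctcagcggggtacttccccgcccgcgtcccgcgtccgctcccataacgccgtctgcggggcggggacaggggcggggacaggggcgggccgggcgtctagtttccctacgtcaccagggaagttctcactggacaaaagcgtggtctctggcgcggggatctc

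On both strands of all 13 windows the FOXO motif GTAAACA, the ATF4 composite motif TGATGNAA and the E2F motifs TTTGGCGC or TTTCGCGC were searched. The only match was that in BCL2L11, which begins 223 bases before the start. Of 35116 RefSeq windows of the same length, 2.98% held the FOXO motif, 3.14% the ATF4 motif and 0.968% an E2F motif. A match is a description of letters, not of a bound site, and these windows were read on a later build than the hg19 (GRCh37) named for the counts. The first BMF window held 26 CpG at 65.2% GC and the second 0 CpG at 48.8% GC, so the 2 starts of that gene differ in kind. PMAIP1 held 36 CpG at 72.8% GC and BCL2L11 34 CpG at 76.8% GC, against a median of 11 CpG and 58% GC over all windows.

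Torkinib changed different members in different lines. In 94T778 4 of the 10 members were called higher and 2 lower by edgeR's quasi-likelihood test at an adjusted p of 0.05 (Benjamini-Hochberg over all genes), where 23.8% of all genes were called higher and 23.8% lower. In A375 1 member was called higher and 4 lower, beside 18.5% and 24.3% of all genes. In SKMEL28 2 were called higher and 4 lower, beside 20.4% and 23.7%.

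The breast lines had more members higher than lower. In SKBR3 4 members were called higher and 1 lower, where 24.6% and 26.7% of all genes were called, and in AU565 5 were called higher and 2 lower, where 26.9% and 28.6% were. On the average of the 5 lines 4 members were called higher (BCL2L2, MCL1, BCL2L11 and BMF) and 4 lower (BCL2L1, BAK1, BID and PMAIP1), beside 28.4% and 28.1% of all genes. With 10 members, these counts lie near the background share in most lines, and the description below rests on single genes and their sizes. With a further demand of at least 1.5-fold the average left 2 members higher and 1 lower, beside 12% and 11.7% of all genes, namely BMF and BCL2L11 higher and BAK1 lower. Without the library that held markers of another line, A375 kept its counts of 1 higher and 4 lower, SKMEL28 had 2 higher and 2 lower, and SKBR3 had 5 higher and 1 lower.

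Called lower in every line was BAK1 alone, while 4.62% of all genes were called lower in all 5 lines. No member was called higher in all 5, as were 2.26% of all genes; BCL2L11 and BMF each came to 4 lines. BCL2L1, MCL1 and PMAIP1, 3 of the 10, were called higher in some lines and lower in others, as were 24% of all genes. The size of the response differed between lines for 7 of the 10 members, where 68.4% of all genes differed; the 3 without such a call were BCL2 (adjusted p = 0.0655), BAK1 (adjusted p = 0.105) and BIK (adjusted p = 0.124).

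**Figure D1:**
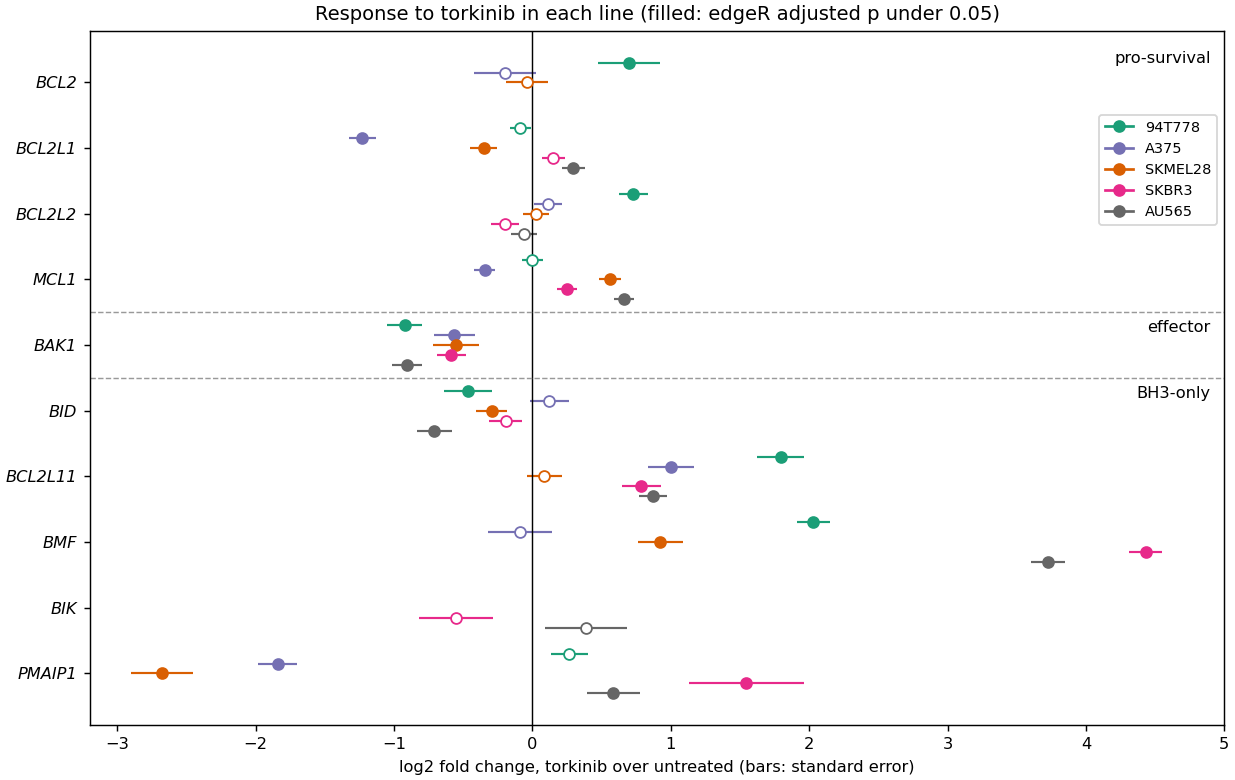
Response of each member to torkinib in each line, as the fitted log2 fold change over untreated (x axis). Bars are a standard error back-calculated from the test. Filled points passed an adjusted p of 0.05 by edgeR. BMF lies farthest to the right, at 4.43 in SKBR3 and 3.73 in AU565, PMAIP1 spans -2.68 in SKMEL28 to 1.54 in SKBR3, and BAK1 lies left of 0 in every line; BCL2 in the breast lines and BIK in the other lines had too few counts to be drawn.

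BMF showed the largest rise of any member. Its protein is held on the dynein light chain of the cytoskeleton and, once free, binds pro-survival proteins. In SKBR3 its level was 11.4 and 17.2 CPM in the untreated libraries and 297 and 331 CPM with torkinib, on the normalised scale that is used for all member levels (CPM after TMM scaling of library sizes). Both torkinib libraries stood far above both untreated ones, a 21.6-fold rise (log2 4.43, SE 0.12, adjusted p = 7.08e-27). That was the 7th largest rise among the 3428 genes called higher in SKBR3 that reached 8 CPM in a group. In AU565 the level went from 10.5 and 11 CPM to 138 and 146 CPM, again without overlap. The rise there was 13.2-fold (log2 3.73, SE 0.12, adjusted p = 3.34e-24), the 19th largest of 3260 such genes.

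In the other lines BMF rose in 94T778 and SKMEL28 and passed no test in A375. In 94T778 it was 21.9 and 23.4 CPM untreated and 84.4 and 100.3 CPM with torkinib. The torkinib libraries were the higher pair, with a 4.08-fold rise (log2 2.03, SE 0.12, adjusted p = 8.14e-17). SKMEL28 went from 11.3 and 10.3 CPM to 20.9 and 19.6 CPM, a rise without overlap (log2 0.92, SE 0.16, adjusted p = 1.32e-05). In A375 the libraries overlapped, at 7.78 and 6.80 CPM untreated and 6.25 and 7.59 CPM with torkinib (log2 -0.09, SE 0.23, adjusted p = 0.795). The 2 untreated SKBR3 libraries differed by more than those of other lines, and the rise there was 4.18 without untreated replicate 1 and 4.78 without untreated replicate 2, on the log2 scale.

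BCL2L11 encodes BIM, which binds every pro-survival member and can activate the effectors directly. It rose in 4 lines and passed no test in SKMEL28. In 94T778 the untreated libraries held 5.30 and 6.05 CPM and the torkinib libraries 20 and 19.5 CPM. This was its largest rise, 3.47-fold and without overlap (log2 1.79, SE 0.17, adjusted p = 4.07e-11). In A375 the level was 8.18 and 7.40 CPM untreated and 15.1 and 16.2 CPM with torkinib. Here too both treated libraries were higher, 2.0-fold (log2 1.00, SE 0.16, adjusted p = 4.31e-06).

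BCL2L11 also rose in both breast lines. SKBR3 went from 12.7 and 15.4 CPM to 25.0 and 23.9 CPM (log2 0.79, SE 0.14, adjusted p = 1.13e-05), and AU565 from 29.5 and 29.9 CPM to 54.0 and 54.5 CPM (log2 0.87, SE 0.10, adjusted p = 3.89e-09). Libraries of the 2 conditions did not overlap in either line. In SKMEL28 they did, with 21.3 and 19.7 CPM untreated and 22.0 and 21.3 CPM with torkinib (log2 0.09, SE 0.12, adjusted p = 0.628). The FOXO motif printed in capitals above belongs to this gene, which is a textbook FOXO target. It was the only match found in a member's window, and 2.98% of all windows held this motif. Whether it has a part in these changes was not tested.

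PMAIP1 encodes NOXA, an ATF4 target whose protein binds MCL1 and hastens its removal. It fell in both melanoma lines and rose in both breast lines. A375 held 66.0 and 58.5 CPM untreated and 17.2 and 17.5 CPM with torkinib, with no overlap. The fall was 3.58-fold (log2 -1.84, SE 0.14, adjusted p = 1.42e-13). In SKMEL28 the level went from 17.6 and 20.1 CPM to 2.40 and 3.66 CPM, also without overlap. That fall of 6.39-fold (log2 -2.68, SE 0.22, adjusted p = 1.28e-12) was the 84th largest of 3416 genes called lower in SKMEL28 that reached 8 CPM in a group.

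In AU565 PMAIP1 lay at 8.93 and 9.61 CPM untreated and 15.2 and 12.7 CPM with torkinib. The treated pair was higher (log2 0.58, SE 0.19, adjusted p = 0.00936), but the call was lost without untreated replicate 1 (log2 0.52, adjusted p = 0.0759) and without torkinib replicate 1 (log2 0.46, adjusted p = 0.106). SKBR3 had very little of this RNA, with 4 and 13 counts in the untreated libraries and 25 and 21 with torkinib, or 0.736 and 1.91 CPM and 4.97 and 3.35 CPM. The torkinib libraries were again the higher pair (log2 1.54, SE 0.42, adjusted p = 0.00197), and the rise was 1.08 without untreated replicate 1 and 2.44 without untreated replicate 2, which held SKMEL28 markers. In 94T778 the libraries overlapped, at 28.4 and 34.3 CPM untreated and 41.2 and 34.3 CPM with torkinib (log2 0.27, SE 0.13, adjusted p = 0.0953); scaled to library totals alone, the value was 0.38 with an adjusted p of 0.0167, past the threshold, and without torkinib replicate 2 it was 0.39 with an adjusted p of 0.0356. The fall on the average of the lines (log2 -0.42, adjusted p = 0.00298) thus joins opposite responses, and without SKBR3 untreated replicate 2 it was -0.25 with an adjusted p of 0.298.

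BID, which caspase-8 cleaves so that death receptor signals reach the mitochondrion, was not called higher in any line. In AU565 it went from 30.6 and 34.2 CPM to 18.6 and 20.7 CPM, and the groups did not overlap. It fell by 0.71 on the log2 scale (SE 0.12, adjusted p = 7.17e-06). Falls in 94T778, from 12.6 and 12.3 CPM to 8.97 and 9.07 CPM (log2 -0.46, SE 0.17, adjusted p = 0.024), and in SKMEL28, from 35.2 and 36.4 CPM to 29.7 and 28.7 CPM (log2 -0.30, SE 0.11, adjusted p = 0.0293), were small. Libraries did not overlap in either line, yet each call was lost whichever of the line's own 4 libraries was left out, with adjusted p of 0.0711 to 0.104 in 94T778 and 0.0625 to 0.189 in SKMEL28. A375 passed no test, at 18.3 and 16.2 CPM untreated and 18.3 and 19.4 CPM with torkinib (log2 0.12, SE 0.14, adjusted p = 0.519). Nor did SKBR3 (log2 -0.19, SE 0.12, adjusted p = 0.175), where the value without untreated replicate 1 was -0.33 with an adjusted p of 0.0379.

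BIK, a BH3-only protein of the endoplasmic reticulum, was found mainly in the breast lines. Untreated levels were 8.09 and 7.48 CPM in SKBR3 and 3.08 and 4.39 CPM in AU565, while the other lines held 4 to 9 counts per untreated group. With torkinib SKBR3 held 3.97 and 6.38 CPM (log2 -0.55, SE 0.27, adjusted p = 0.0853) and AU565 4.57 and 4.98 CPM (log2 0.38, SE 0.29, adjusted p = 0.284). Torkinib libraries lay below the untreated ones in SKBR3 and above them in AU565, and neither difference passed the test; without SKBR3 torkinib replicate 2 the value there was -0.98 with an adjusted p of 0.0301. In the lines with few counts the ratio of torkinib to untreated was 1.2 in 94T778 (6 against 4 counts, exact 95% interval 0.285 to 5.80), 0.211 in A375 (1 against 7 counts, 0.00467 to 1.64) and 0.622 in SKMEL28 (7 against 9 counts, 0.197 to 1.88). These intervals cover counting error only, and each includes a ratio of 1. With limma-voom the A375 value passed the threshold (log2 -1.65, adjusted p = 0.0435).

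**Figure D2:**
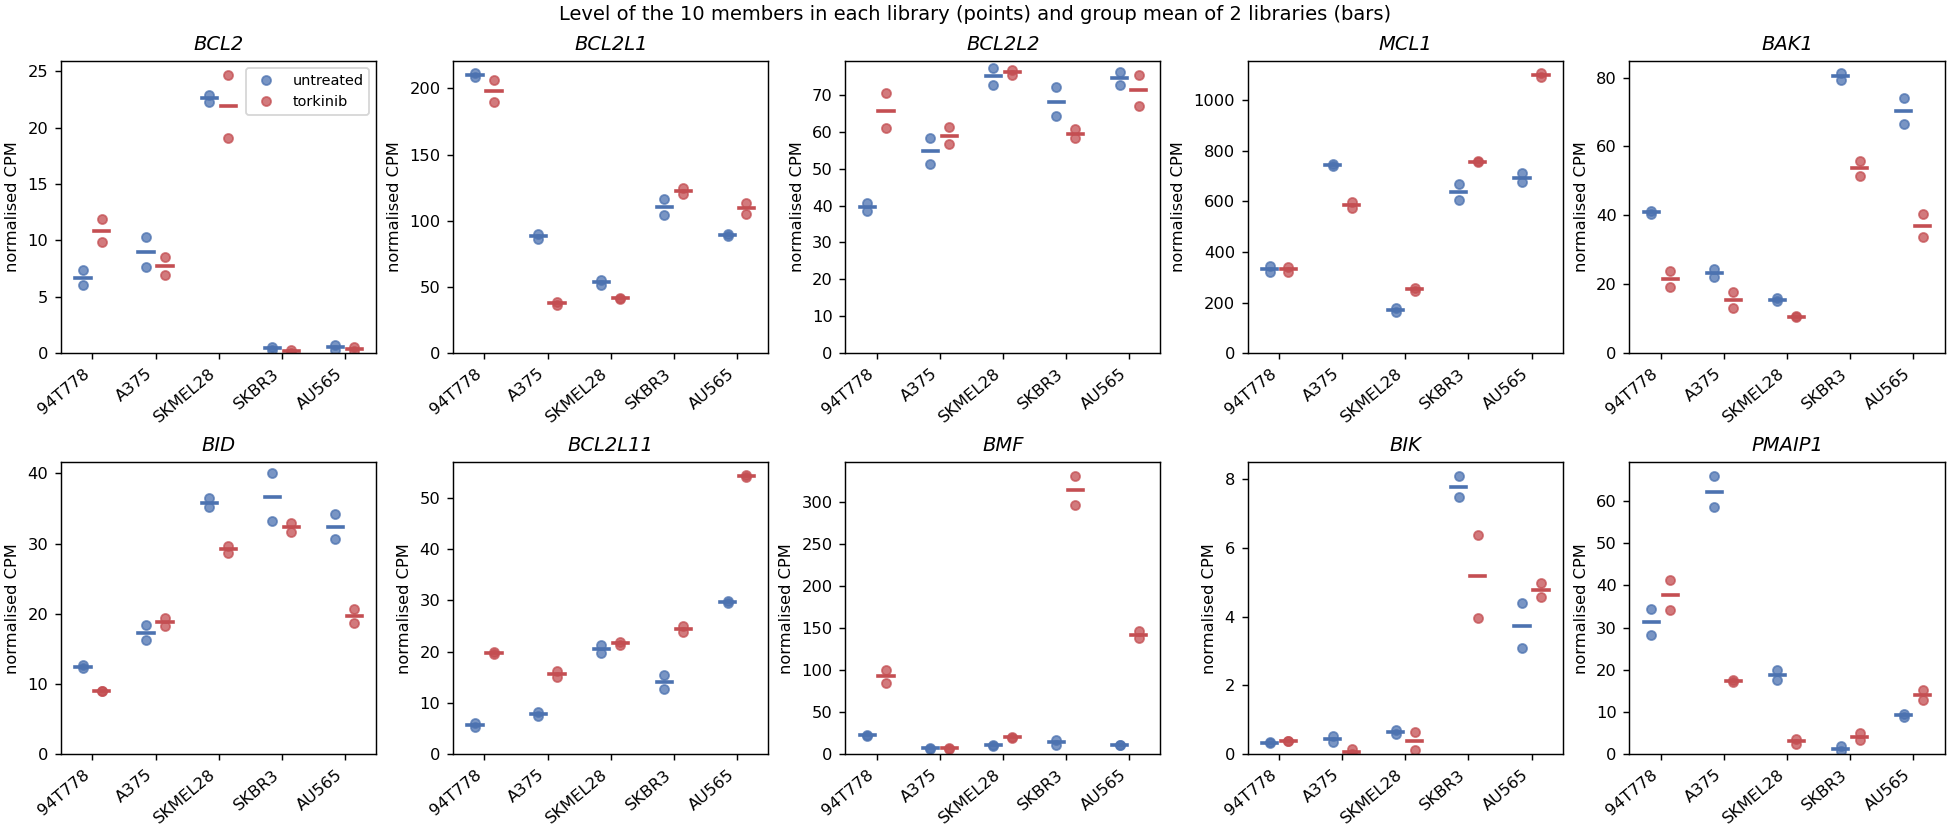
Normalised CPM of the 10 members (1 panel each, y axis from 0) in every library of the 5 lines (x axis); points are libraries and bars the mean of 2 libraries, blue untreated and red torkinib. BMF stands at 296.7 and 330.7 CPM in torkinib SKBR3 and at or below 23.4 CPM in every untreated library, and BAK1 is lower in red than in blue in each line.

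Among the pro-survival members MCL1, a short-lived protein that depends on steady synthesis, was called in 4 lines. AU565 held 709.9 and 678 CPM untreated and 1107 and 1089 CPM with torkinib. The groups stood clearly apart, with a 1.58-fold rise (log2 0.66, SE 0.07, adjusted p = 7.19e-10). SKMEL28, with the least MCL1 RNA, went from 162 and 179 CPM to 259 and 245 CPM, a rise without overlap (log2 0.56, SE 0.08, adjusted p = 2.1e-07). SKBR3 went from 667 and 604 CPM to 754 and 758 CPM, a smaller rise (log2 0.25, SE 0.07, adjusted p = 0.0042) in which both treated libraries were still the higher ones.

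A375 was the exception, with less MCL1 RNA after torkinib. Its level was 749 and 739 CPM untreated and 598 and 572 CPM with torkinib. Both treated libraries were lower (log2 -0.35, SE 0.07, adjusted p = 1.88e-04). In 94T778 the libraries overlapped, at 322 and 342 CPM and 342 and 321 CPM, and the fitted change was near 0 (SE 0.08, adjusted p = 1), with a sign that turned with the scaling.

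BCL2L1, the gene of BCL-XL, fell in the melanoma lines. A375 held 86.5 and 90.4 CPM untreated and 38.5 and 36.7 CPM with torkinib, with no overlap. The fall was 2.35-fold (log2 -1.23, SE 0.10, adjusted p = 3.04e-13). In SKMEL28 it went from 55.5 and 51.3 CPM to 41.2 and 42.0 CPM, also without overlap (log2 -0.35, SE 0.10, adjusted p = 0.00261).

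No other line had less BCL2L1 by the test. AU565 went from 89.8 and 88.8 CPM to 105 and 114 CPM. Both treated libraries were higher (log2 0.29, SE 0.08, adjusted p = 0.00255), a call that was lost without torkinib replicate 2 (log2 0.22, adjusted p = 0.0856). SKBR3 went from 104 and 117 CPM to 120.4 and 125 CPM and passed no test (log2 0.15, SE 0.08, adjusted p = 0.135); without untreated replicate 2, which held SKMEL28 markers, the value was 0.23 with an adjusted p of 0.0361. The largest amount was in 94T778, at 208 and 212 CPM untreated and 189.6 and 206 CPM with torkinib, with no call (log2 -0.09, SE 0.07, adjusted p = 0.362) and, scaled to library totals alone, the opposite sign.

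BCL2L2, the gene of BCL-W, rose in 94T778 alone. There the libraries held 38.6 and 40.7 CPM untreated and 70.5 and 61.0 CPM with torkinib. The groups did not overlap, and the rise was 1.66-fold (log2 0.73, SE 0.10, adjusted p = 2.57e-07). In the other lines the fitted change lay between -0.20 in SKBR3 (adjusted p = 0.0975) and 0.11 in A375 (adjusted p = 0.389) and passed no test; without SKBR3 untreated replicate 1 the value in SKBR3 was -0.29 with an adjusted p of 0.0230. The call on the average of the lines (log2 0.12, adjusted p = 0.0167) was lost in 6 of the 20 fits that left out 1 library. BCL2L2 shares its strand with the read-through gene BCL2L2-PABPN1 and overlaps PPP1R3E on the opposite strand (38 to 182 counts per library), and since the strand setting of the counting is not given, their reads cannot be told apart. In the same annotation MCL1 overlaps ADAMTSL4-AS1, BCL2L1 ABALON, BCL2L11 MIR4435-2HG, BMF BMF-AS1 and BAK1 GGNBP1. Of these overlapping genes only GGNBP1 has its own counts, 0 to 2 per library.

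BCL2 itself was scarce. In SKMEL28, which had the most, it was 22.3 and 22.9 CPM untreated and 24.7 and 19.1 CPM with torkinib, with overlapping libraries and no call (adjusted p = 0.905). It rose in 94T778, from 7.35 and 6.05 CPM to 11.9 and 9.83 CPM (log2 0.70, SE 0.22, adjusted p = 0.00998), without overlap, but the call was lost without untreated replicate 2 (log2 0.56, adjusted p = 0.121) or torkinib replicate 1 (log2 0.55, adjusted p = 0.103). A375 overlapped, at 7.65 and 10.3 CPM and 8.53 and 6.96 CPM (adjusted p = 0.514). In the breast lines the groups held 2 to 8 counts, so that the ratio of torkinib to untreated, 0.433 in SKBR3 (2 against 5 counts, exact 95% interval 0.0412 to 2.65) and 0.874 in AU565 (5 against 8 counts, 0.225 to 3.03), set almost no limit.

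The effector BAK1, which forms pores in the outer membrane, fell in all 5 lines. In 94T778 it went from 40.3 and 41.4 CPM to 19.2 and 23.8 CPM (log2 -0.92, SE 0.13, adjusted p = 1.19e-07), and in AU565 from 66.5 and 74.1 CPM to 33.7 and 40.4 CPM (log2 -0.91, SE 0.11, adjusted p = 4.41e-09). These were the largest falls. SKBR3, with the most BAK1 RNA, went from 79.4 and 81.2 CPM to 55.8 and 51.5 CPM (log2 -0.59, SE 0.11, adjusted p = 1.15e-05). The melanoma lines, with the least, went from 24.4 and 22.1 CPM to 17.7 and 13.1 CPM in A375 (log2 -0.57, SE 0.15, adjusted p = 0.00224) and from 15.1 and 16.0 CPM to 10.7 and 10.6 CPM in SKMEL28 (log2 -0.55, SE 0.17, adjusted p = 0.00597). Torkinib libraries lay below untreated ones in every line. The call in A375 was lost without torkinib replicate 2 (log2 -0.40, adjusted p = 0.0711), and that in SKMEL28 without untreated replicate 2 (log2 -0.50, adjusted p = 0.0874), which held A375 markers. On the average of the lines the fall was 1.63-fold (log2 -0.71, SE 0.06, adjusted p = 5.6e-13).

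BH3-only and pro-survival members were set against each other by their median change in each line, as a description. The median change of the 5 BH3-only members was 0.79 in SKBR3 and 0.58 in AU565 on the log2 scale, and that of the 4 pro-survival members -0.02 and 0.12, where the median of all genes was 0 in both lines. The difference of the medians was 0.81 in SKBR3 and 0.47 in AU565. In 94T778 it was -0.08, in A375 0.18 and in SKMEL28 -0.29, with all-gene medians of -0.02 in A375 and 0 in 94T778 and SKMEL28. These values describe 9 genes and carry no test. Means gave another sign in 2 lines: in 94T778 the BH3-only mean was 0.76 and the pro-survival mean 0.33, and in A375 they were -0.58 and -0.42. They lean on the genes with few counts: without BIK and BCL2, an alternative chosen after the data were seen, the difference was 1.03 in 94T778, 1.02 in SKBR3, 0.43 in AU565, 0.36 in A375 and -0.13 in SKMEL28. In A375 it was -0.02 without untreated replicate 2 or torkinib replicate 2, and in 94T778 0.11 without untreated replicate 2. In AU565 it was 0.15 without torkinib replicate 1 and 0.31 without untreated replicate 2.

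Which members supply the RNA was compared per length, as normalised CPM per kilobase of exons, with exon lengths from GENCODE 29. Each length joins all annotated exons of a gene, on a later build than that of the counts. The transcripts present may be shorter, so shares between genes are rough, and their SDs cover the spread between libraries only. MCL1 made up most of the pro-survival RNA in untreated A375 (80.8 ± 0.0677% of the 4 members, mean ± SD, n = 2, as for all shares here), AU565 (78.0 ± 0.722%) and SKBR3 (74.5 ± 2.84%). In untreated 94T778 its share was 50.8 ± 0.766%, beside 42.5 ± 0.753% for BCL2L1. By these 4 members SKMEL28 was the most mixed line, with 52.0 ± 2.82% MCL1, 23.9 ± 1.33% BCL2L2, 21.5 ± 1.51% BCL2L1 and 2.57 ± 0.0174% BCL2. With torkinib the MCL1 share of SKMEL28 was 63.9 ± 0.989%, and the BCL2L1 share of A375 went from 12.7 ± 0.496% to 7.10 ± 0.00630%. The summed level of the 4 genes was 211 ± 1.81 CPM per kilobase in untreated A375 and 160.0 ± 5.48 with torkinib. A375 was the only line in which this sum of 4 genes was lower after treatment in both libraries. BCL2A1, a further pro-survival gene found mainly in SKMEL28, fell there (log2 -0.73) and is not in these shares or sums.

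**Figure D3:**
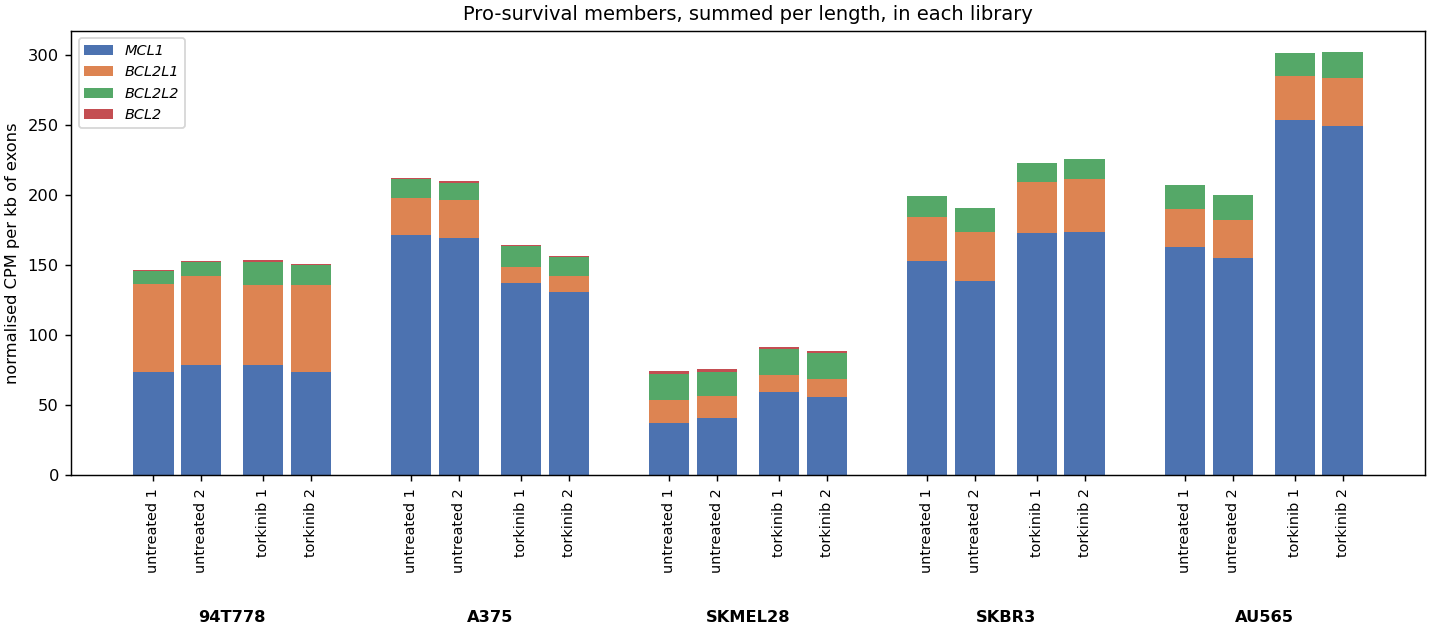
Summed level of the 4 pro-survival members in each library, as normalised CPM per kilobase of exons (y axis, from 0), stacked by gene. MCL1 (blue) is the largest block in every library, BCL2L1 (orange) is large in 94T778, and the sum is lower with torkinib in A375 and highest in torkinib AU565.

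Among the BH3-only members the leading gene changed with the line and with torkinib. PMAIP1 supplied 80.2 ± 0.203% of the BH3-only RNA per length in untreated A375 and 63.1 ± 2.52% in untreated 94T778, but 2.65 ± 1.46% in untreated SKBR3, where BID (37.9 ± 1.41%) and BIK (37.8 ± 5.62%) led. The BIK share there rests on 44 and 51 counts and an exon length of 0.953 kilobases. With torkinib BMF supplied 75.9 ± 0.467% in SKBR3, from 12 ± 2.32%, and 52.3 ± 1.17% in AU565, from 9.08 ± 0.504%. In 94T778 the BMF share went from 18.8 ± 0.890% to 43.2 ± 5.43%, level with PMAIP1 at 43.0 ± 5.41%. In SKMEL28 the PMAIP1 share went from 37.9 ± 2.21% to 8.89 ± 2.81%, and BID then led at 42.9 ± 0.0296%.

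As a percentage of the summed pro-survival level, the summed BH3-only level went up in 3 lines and down in the melanoma lines. It was 11.2 ± 1.39% untreated and 33.8 ± 2.08% with torkinib in SKBR3, and 14.8 ± 0.967% and 25.8 ± 0.187% in 94T778. In AU565 it was 10.7 ± 1.16% and 16.6 ± 0.308%. In A375 it went from 16.5 ± 1.30% to 9.83 ± 0.617%, and in SKMEL28 from 29.7 ± 0.626% to 17.0 ± 0.00285%. No libraries of the 2 conditions overlapped in any line. In 94T778 and A375 the direction is opposite to that of the difference of medians above (-0.08 and 0.18). Genes with much RNA weigh more in the sums. These sums cover the members only. BBC3, called higher in all 5 lines, BAD, called lower in both breast lines, and BCL2A1 are not in them. How the percentages would stand with those genes was not tested. With 2 libraries per condition an exact permutation test within a line cannot go below p = 0.333, so no test was made, and an RNA sum says nothing of protein amounts.

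**Figure D4:**
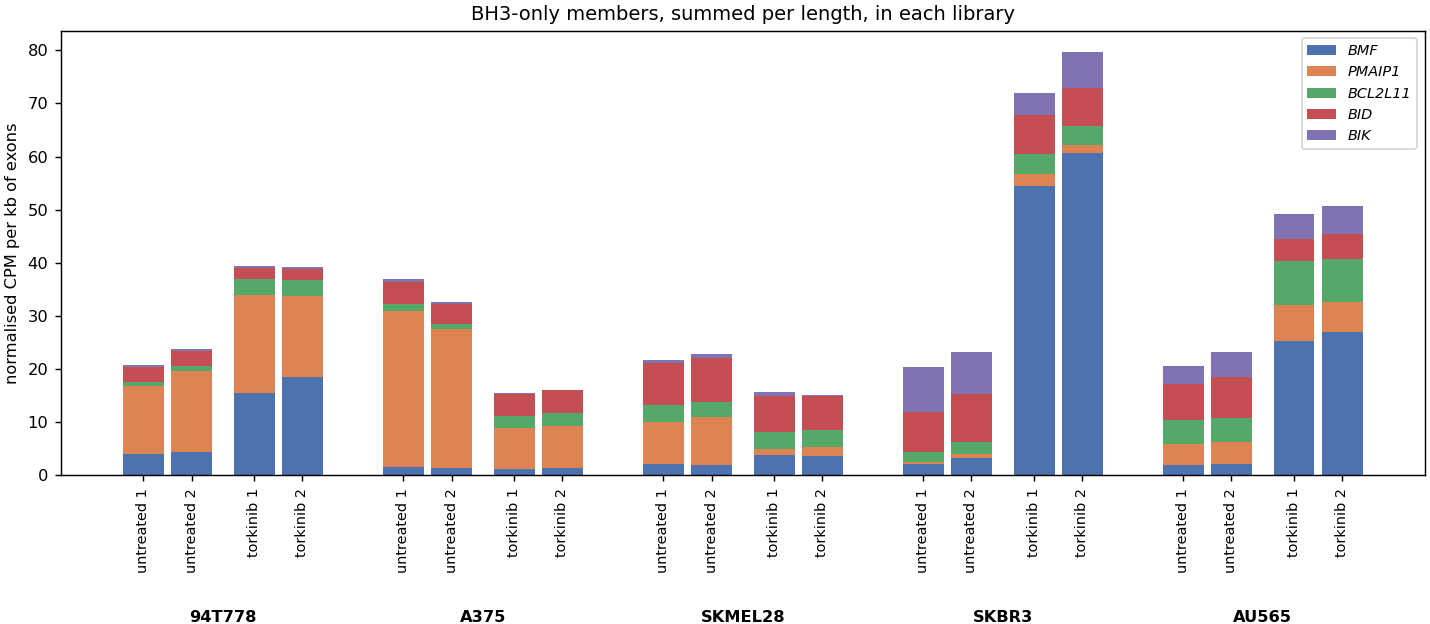
Summed level of the 5 BH3-only members in each library, as normalised CPM per kilobase of exons (y axis, from 0), stacked by gene. BMF (blue) fills most of the bars of torkinib SKBR3 and about as much as all others together in torkinib AU565, while PMAIP1 (orange) leads in untreated 94T778 and A375 and is small in torkinib SKMEL28.

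Before treatment, all 10 members differed between the 5 lines, as did 96.3% of all genes. BCL2 ranged from 22.6 ± 0.458 CPM in SKMEL28 through 8.96 ± 1.85 in A375 and 6.70 ± 0.915 in 94T778 to 0.503 ± 0.260 in AU565 and 0.422 ± 0.183 in SKBR3 (mean ± SD, n = 2), where the 2 libraries held 5 counts together. The test found no difference between A375 and 94T778 (adjusted p = 0.103) or between the 2 breast lines (adjusted p = 0.888). PMAIP1 levels formed steps that each passed the test, from 62.2 ± 5.28 CPM in A375 to 31.3 ± 4.2 in 94T778, 18.8 ± 1.75 in SKMEL28, 9.27 ± 0.475 in AU565 and 1.32 ± 0.828 in SKBR3. BIK ran from 7.79 ± 0.432 CPM in SKBR3 and 3.74 ± 0.924 in AU565, which differed (adjusted p = 0.000801), to 0.652 ± 0.0921 in SKMEL28, with no call between neighbours among the lowest 3 lines.

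MCL1 was highest in A375 (744.3 ± 7.01 CPM), AU565 (693.7 ± 22.8) and SKBR3 (635.7 ± 44.4), neighbours without a call, and lower in 94T778 (332.0 ± 14.7) and SKMEL28 (170.4 ± 11.5). A375 and SKBR3, which are not neighbours in that order, did differ by edgeR's test (log2 0.23, adjusted p = 0.00519). BCL2L1 was highest in 94T778 (210.2 ± 2.42 CPM) and lowest in SKMEL28 (53.4 ± 3.02), with AU565 and A375 between them (adjusted p = 0.899 for that pair). BAK1 was highest in SKBR3 (80.3 ± 1.28 CPM) and AU565 (70.3 ± 5.39), a pair without a call (adjusted p = 0.0902), followed in steps by 94T778, A375 and SKMEL28 (15.5 ± 0.674). BCL2L11 ran from 29.7 ± 0.320 CPM in AU565 to 7.79 ± 0.550 in A375 and 5.68 ± 0.535 in 94T778, the last pair without a call (adjusted p = 0.0533). BMF was highest in 94T778 (22.6 ± 1.06 CPM) and lowest in A375 (7.29 ± 0.692), and its neighbours SKMEL28 and AU565 had an adjusted p of 1. BID was lower in A375 (17.3 ± 1.49 CPM) and 94T778 (12.5 ± 0.261) than in the other 3 lines, whose neighbours had no call. BCL2L2 varied least, from 75 ± 3.16 CPM in SKMEL28 to 39.7 ± 1.47 in 94T778.

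The lines given 4 µM, A375, SKMEL28 and AU565, allow responses to be compared at 1 dose. Between A375 and SKMEL28, both melanoma lines, 5 of the 10 members responded differently, where 28.4% of all genes did. MCL1 is the clearest case, lower with torkinib in A375 and higher in SKMEL28, with a difference of -0.91 (SE 0.11, adjusted p = 2.17e-08). BCL2L1 fell more in A375, by a difference of -0.88 (SE 0.14, adjusted p = 3.93e-06). The BCL2L11 response was larger in A375 by 0.92 (SE 0.21, adjusted p = 7.04e-04), and that of BMF was smaller, a difference of -1.02 (SE 0.28, adjusted p = 0.00562). PMAIP1 fell less in A375, a difference of 0.83 (SE 0.28, adjusted p = 0.0244). Without A375 torkinib replicate 1 the count was 3, since BMF (-0.86, adjusted p = 0.0594) and PMAIP1 (0.85, adjusted p = 0.0529) missed the threshold, and the PMAIP1 difference was also lost without A375 untreated replicate 2 and without SKMEL28 untreated replicate 2 or torkinib replicate 1.

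AU565 differed from A375 in 5 members, where 38% of all genes differed. BMF gave the largest difference, 3.82 (SE 0.27, adjusted p = 4e-14), followed by PMAIP1 at 2.42 (SE 0.24, adjusted p = 2.32e-10). BCL2L1 differed by 1.52 (SE 0.13, adjusted p = 3.19e-12) and MCL1 by 1.01 (SE 0.10, adjusted p = 4.77e-10), both with more RNA after torkinib in AU565 and less in A375. The BID response was lower in AU565, a difference of -0.83 (SE 0.19, adjusted p = 5.14e-04). BCL2L11 passed no test of the difference (-0.13, SE 0.19, adjusted p = 0.671).

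Against SKMEL28, AU565 differed in 4 members, where 34.8% of all genes differed. They were PMAIP1, at 3.26 (SE 0.30, adjusted p = 4.61e-11), BMF, at 2.80 (SE 0.22, adjusted p = 1.23e-12), BCL2L11, at 0.78 (SE 0.16, adjusted p = 1.79e-04), and BCL2L1, at 0.65 (SE 0.13, adjusted p = 8.47e-05). MCL1 rose in both lines, and its difference passed no test (0.10, SE 0.11, adjusted p = 0.517). BAK1 passed no test in any of the 3 pairs. SKBR3 and 94T778 had other doses, so their values stand beside these without a comparison.

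Of 13 further genes of the family 9 were tested, and on the average of the lines 2 were called higher and 6 lower, beside 28.4% and 28.1% of all genes, with a median of -0.52 against -0.01 for all genes. BBC3, the BH3-only protein PUMA, rose in all 5 lines, 1.86 in SKMEL28, 1.54 in SKBR3, 1.27 in A375, 1.18 in AU565 and 1.08 in 94T778 on the log2 scale. Its untreated groups lay between 5.06 and 10.0 CPM and its torkinib groups between 12.8 and 29.2 CPM. BAX, the other main effector, rose in A375, from 46.4 and 46.6 CPM to 87.8 and 86.6 CPM (log2 0.91, SE 0.10, adjusted p = 7.49e-10), and fell in the other 4 lines, by 0.33 in 94T778 to 0.64 in SKBR3. BAK1 and BAX thus both fell in 4 lines and parted in A375.

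BNIP3 and BNIP3L, which mark mitochondria for autophagy, had averages of -0.62 (SE 0.05, adjusted p = 2.37e-14) and -0.52 (SE 0.06, adjusted p = 2.65e-10); BNIP3 fell most in 94T778 (-2.31) and rose in SKBR3 (0.54). BCL2L12 averaged -0.83 (SE 0.07, adjusted p = 1.99e-12) and BAD, a BH3-only protein silenced by phosphorylation, -0.57 (SE 0.07, adjusted p = 3.09e-09), at -1.28 in SKBR3 and -1.78 in AU565. BCL2L13, a mitochondrial member, was the other gene called higher, at 0.16 (SE 0.04, adjusted p = 4.84e-04). That average joins calls in both directions, at -0.22 in A375 and -0.21 in SKMEL28 and at 0.22 in 94T778, 0.29 in SKBR3 and 0.71 in AU565. BOK passed no test (adjusted p = 0.869). The pro-survival gene BCL2A1 was found mainly in SKMEL28, with 124 and 139.8 CPM untreated and 80.0 and 79.9 CPM with torkinib, a fall (log2 -0.73, SE 0.09, adjusted p = 1.15e-08). Its groups elsewhere held at most 14 counts and both torkinib breast groups 0, so its call on the average is not read; it is 1 of the 6 genes counted as lower above. HRK, BCL2L10, BCL2L14 and BCL2L15 did not pass the filter on low counts.

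Of 15 genes that bind or turn over family proteins 6 were called higher and 6 lower on the average, beside 28.4% and 28.1% of all genes, with a median near that of all genes. The 4 with the smallest p all fell on the average: VDAC1 and VDAC3, channels of the outer membrane, MTCH2, the membrane receptor of BID, and DYNLL1, a dynein light chain. VDAC1 and MTCH2 were called lower in 5 lines. VDAC3 and DYNLL1 were called lower in 4, and stood at -0.19 and -0.12 in A375. The averages of VDAC1, VDAC3, MTCH2 and DYNLL1 were -0.88 (SE 0.03, adjusted p = 5.18e-23), -0.70 (SE 0.04, adjusted p = 4.19e-17), -0.89 (SE 0.04, adjusted p = 5.85e-22) and -0.72 (SE 0.03, adjusted p = 5.75e-20). Among 16 genes of the apoptosome, the caspases and their inhibitors 6 were called higher and 5 lower, beside the same 28.4% and 28.1% of all genes, with a median of 0.07. This average joins unlike lines. In 94T778 3 were called higher and 8 lower, in A375 4 and 5, and in SKMEL28 2 and 8. In SKBR3 9 were called higher and 3 lower, and in AU565 7 and 3. The medians were -0.27, -0.02, -0.33, 0.47 and 0.20 in that order. The shares of all genes called in each line are given above. BIRC5, survivin, which is made in dividing cells, had the largest change at -3.75 (SE 0.07, adjusted p = 1.95e-32). CYCS, cytochrome c, averaged -0.62 (SE 0.05, adjusted p = 3.34e-14), and the caspase inhibitors XIAP and BIRC3 averaged 0.56 (SE 0.05, adjusted p = 2.57e-13) and 1.51 (SE 0.16, adjusted p = 2.1e-10). Each of these 3 was called in 4 lines. CYCS stood at -0.02 in A375 and BIRC3 at -0.04 in SKMEL28.

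Of 13 genes of death receptor signalling 4 were called higher and 3 lower on the average, beside 28.4% and 28.1% of all genes, with a median of 0.09. The adaptor TRADD averaged 0.78 (SE 0.09, adjusted p = 2.98e-09), RIPK1 0.27 (SE 0.05, adjusted p = 2.95e-05) and CASP8, which cleaves BID, 0.24 (SE 0.05, adjusted p = 4.42e-05). CASP8 was called higher in 2 lines, SKBR3 (0.63) and AU565 (0.54), and stood at -0.12 in A375. The receptor TNFRSF1A averaged -0.57 (SE 0.05, adjusted p = 9.3e-14). It was called lower in 2 lines, A375 (-1.34) and SKMEL28 (-1.22), and stood at 0.11 in 94T778. Among 14 transcription factors known to act on members 11 were called higher and 2 lower on the average, beside the same shares of all genes, 28.4% and 28.1%, with a median of 0.28 against -0.01 for all genes. Single lines had fewer called higher. There were 6 higher and 2 lower in 94T778, 5 and 5 in A375, and 6 and 3 in SKMEL28. SKBR3 had 7 and 3, and AU565 6 and 2. FOXO3 changed by 0.21 in SKMEL28, 2.24 in SKBR3, 0.47 in A375, 2.0 in AU565 and -0.18 in 94T778, with calls in A375, SKBR3 and AU565. FOXO1 rose in every line but AU565, with an average of 1.38 (SE 0.07, adjusted p = 1.26e-18). Its change was 2.31 in SKMEL28, 1.72 in 94T778, 1.57 in SKBR3, 1.30 in A375 and 0.0004 in AU565. E2F1 averaged -2.30 (SE 0.06, adjusted p = 2.44e-28) and JUN 0.84 (SE 0.05, adjusted p = 1.77e-18). JUN was called higher in A375 (2.45), SKMEL28 (1.42) and 94T778 (0.66) and lower in SKBR3 (-0.42), with no call in AU565 (0.09).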

How the data were processed

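RNA of 20 libraries (5 lines, untreated or torkinib, 2 each) was sequenced. Each deposited table gives raw read counts by gene symbol, which the authors did not normalize. The submitters' processing notes name hg19 (GRCh37) as the build, with limma 3.34.9, HTSeq 0.6.1 and HISAT2 2.04 as tools. What each did, and how strand and annotation were set, is not given in the sources used here. HTSeq's summary lines were kept out of library totals: of all lines of a table, reads in no gene made up 5.43% to 7.83%, reads in several genes 1.08% to 1.57%, low alignment quality 2.96% to 5.36%, unaligned reads 16.1% to 30.8% and reads aligned at several places 9.32% to 15.1%.

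Genes were filtered with filterByExpr and scaled by TMM in edgeR 4.0.16 (R 4.3.3), and 16698 were tested with the quasi-likelihood test in 1 model of 10 group means (residual df 10), with Benjamini-Hochberg adjustment over all genes at 0.05. The biological coefficient of variation was 0.0547. Each SE was back-calculated, as the size of the log2 fold change over the square root of the test's F value. It is therefore rough where counts are few. Contrasts were torkinib against untreated in each line, their average, any difference between lines, and the 3 pairs of lines at 4 µM. Replicates were 2 libraries per group, so intervals rest on spread shared over groups. Alternatives were RLE size factors, library totals, no filter, DESeq2 1.42.0, limma-voom (limma 3.58.1), each line alone, a replicate block, a further 1.5-fold demand and each library left out. Exon lengths came from GENCODE 29. Named genes were all members, all further family genes and, from each other list, the 4 with the smallest p on the average. Members and lists were chosen with earlier results of these data known. For each member the 3 genes with the most similar log2 CPM over group means (at least 8 CPM) were also listed.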

Additional observations from a re-analysis of the deposited data

Results flagged for a closer look

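The response to torkinib differed between the 5 lines for 7 members by the test of the difference itself (edgeR's quasi-likelihood test, adjusted over all genes), where 68.4% of all genes differed. The adjusted p was 1.69e-18 for BMF, 1.7e-14 for PMAIP1, 5.72e-12 for BCL2L1, 3.69e-10 for MCL1, 4.35e-07 for BCL2L11, 7.09e-06 for BCL2L2 and 0.00346 for BID. Doses differed between these lines, so line and dose cannot be told apart in this set.

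At the shared dose of 4 µM, the log2 response in A375 minus that in SKMEL28 was -0.905 for MCL1, -0.876 for BCL2L1, 0.915 for BCL2L11, -1.02 for BMF and 0.835 for PMAIP1. MCL1 had less RNA with torkinib in both A375 libraries and more in both SKMEL28 libraries. AU565 minus A375 was 3.82 for BMF, 2.42 for PMAIP1, 1.52 for BCL2L1, 1.01 for MCL1 and -0.83 for BID. PMAIP1, BCL2L1 and MCL1 fell in A375 and rose in AU565. AU565 minus SKMEL28 was 3.26 for PMAIP1, 2.8 for BMF, 0.784 for BCL2L11 and 0.649 for BCL2L1. With 2 libraries a group, no group was large enough to look for a single library far from the rest.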

How the results depend on the processing

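Counts of called members kept within 1.5 times of the values given, in every line and on the average, with RLE size factors, DESeq2, limma-voom and the replicate block. In 94T778 the count of members lower, 2 as given, was 1 with library totals alone and 1 with no filter on low counts. Also asking for at least 1.5-fold gave 1 member lower in 94T778, 2 lower in A375, 1 higher and 1 lower in SKMEL28, 3 higher in AU565, and 2 higher and 1 lower on the average. That demand left 2469 genes higher and 2387 lower in 94T778 (from 3968 and 3970), 1718 and 2642 in A375 (from 3089 and 4051), 2095 and 2265 in SKMEL28 (from 3402 and 3953) and 2012 and 1959 on the average (from 4734 and 4692). The BH3-only minus pro-survival median was 0.68 in 94T778 and 0.29 in AU565 with each line fitted alone, where BIK or BCL2 was not tested, and without BIK and BCL2, chosen after seeing the data, 1.03 in 94T778, 0.36 in A375, 1.02 in SKBR3 and 0.43 in AU565. Leaving out 1 library at a time, members lower ranged from 1 to 2 in 94T778, 2 to 4 in SKMEL28 and 1 to 3 in SKBR3, members that differed between A375 and SKMEL28 from 3 to 5, and the difference of medians from -0.16 to 0.11 in 94T778, -0.023 to 0.44 in A375 and 0.15 to 0.68 in AU565. Signs turned only for values that had not passed the test. With library totals alone, BCL2L1 and MCL1 in 94T778 were 0.021 and 0.11, BCL2L2 in SKMEL28 was -0.0047 and BOK on the average 9.5e-05. Leaving out 1 library gave -0.051 to 0.043 for MCL1 in 94T778, -0.39 to 0.035 for BCL2 and -0.22 to 0.060 for BMF in A375, -0.24 to 0.12 for BCL2 and -0.021 to 0.064 for BCL2L2 in SKMEL28, -1.27 to 0.35 for BCL2 and -0.16 to 0.016 for BCL2L2 in AU565, and -0.10 to 0.052 for BOK on the average. The cause was not tested. Of 1917 member values under an alternative 1865 kept direction and side of the threshold, 33 lost a call, 7 gained one and 12 changed sign. Library totals moved the median of all genes in 94T778 to 0.10 and the share of calls that were higher from 50% to 59.8%.

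Replicate numbers in the labels pair no libraries by any stated culture or day. The correlation of same-numbered deviations over 10902 genes was 0.163 in SKBR3, 0.00578 in SKMEL28, -0.0273 in A375, -0.0275 in AU565 and -0.0958 in 94T778. With the replicate block the counts of members called were 4 higher and 2 lower in 94T778, 1 and 4 in A375, 2 and 4 in SKMEL28, 4 and 1 in SKBR3, 5 and 2 in AU565, and 4 and 4 on the average, with 7 that differed between lines. Depth limits BCL2 in the breast lines and BIK in the others, where a group held 1 to 9 counts.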

Other observations

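Levels of some genes followed those of members over the 10 group means. The measure was Pearson's r of log2 CPM, a description over means that share lines, with 10902 genes compared. For BCL2 the most similar were LGALS3 (r = 0.995), ZEB2 (0.992) and NRCAM (0.991). For BIK they were FAM110A (0.986), C17orf37 (0.980) and PCP4 (0.980), and for BAK1 SLC9A3R1 (0.974), MRPL15 (0.972) and PSMA3 (0.971). The values for BCL2 and BIK rest in part on groups of 1 to 9 counts, for BCL2 the breast lines and for BIK the other lines. BCL2L1 went most closely with MICAL2 (0.973), FAM167A (0.972) and FGD6 (0.957), and MCL1 with POM121 (0.961), MUC15 (0.958) and FBXL19 (0.957). For BMF the nearest were ZNF350 (0.939), KLF7 (0.925) and TBCK (0.924), for PMAIP1 MANEA (0.938), GLUD1 (0.924) and S100A10 (0.921), and for BCL2L11 CNNM3 (0.940). BID was nearest to ARPC1B (0.966) and BCL2L2 to PIGH (0.903).

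ATF4 and DDIT3, transcription factors of the integrated stress response, were chosen for mention after their values were seen. ATF4 changed by 1.44 in AU565, 0.65 in 94T778, 0.02 in SKMEL28 (no call), -0.40 in SKBR3 and -0.72 in A375 on the log2 scale, and DDIT3 by 3.18, 1.44, 0.61, 0.06 (no call) and -1.60 in the same order. PMAIP1 stood at 0.58, 0.27 (no call), -2.68, 1.54 and -1.84 in that order. All 3 fell in A375 and rose in AU565, while in SKMEL28 PMAIP1 fell and DDIT3 rose, and in SKBR3 PMAIP1 rose and ATF4 fell.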
